A study of Mus musculus with 39 samples.

Results

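The aryl hydrocarbon receptor (Ahr), its dimer partner Arnt, and 2 genes that restrain the receptor, Ahrr and Tiparp, were followed across lungs of mice that breathed mainstream tobacco smoke (MTS) and of sham mice. Members were all probes that carry one of these symbols in the platform's annotation, which gave 4 genes with 1 probe and 1 spot each, of 16879 genes named on the array (20868 gene probes). All 4 passed the filter on dim probes, as did 17560 probes in all. RNA of 39 male C57B1/CBA mice was hybridized 1 lung per array in Cy5 against a Cy3-labelled universal mouse reference RNA. The labels give an age of 8 to 10 weeks, which the study states for the mice put to exposure. Mice were thus older at sampling, by the length of exposure and of any break. The smoke groups received the smoke of 2 cigarettes daily on 5 days a week for 6 or 12 weeks (6 week smoke, 5 mice, and 12 week smoke, 4 mice), against 6 week sham and 12 week sham mice held in restrainers only (5 mice each). A second set had the same treatments and then a 6 week break before sacrifice (6 week smoke and break, 12 week smoke and break, against 6 week break sham and 12 week break sham, 5 mice each). The labels give 3 hours after exposure as the time of sampling, also for the break groups, whose break is given by the titles. The smoke values without a break are thus those of lungs taken 3 hours after an exposure. Tissue was part of a frozen left lung lobe, so each value is an average over all its cells, and fewer cells of a type and less RNA per cell cannot be told apart.

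AhR is a ligand-activated transcription factor of the bHLH-PAS family that rests in the cytoplasm with heat shock protein 90 and binds planar aromatic compounds, among them the polycyclic aromatic hydrocarbons of tobacco smoke. With ligand it enters the nucleus, pairs with Arnt and binds xenobiotic response elements, whose core is GCGTG, beside genes such as Cyp1a1. Ahrr, the AhR repressor, is itself a target of the receptor and resembles it, competing for Arnt and for the element. Tiparp, also known as Parp7, is another target, and its product is a mono-ADP-ribosyltransferase that modifies AhR and lowers its activity.

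The start regions of Ahrr and Tiparp, the members that are themselves known AhR targets, and of Arnt for comparison are shown as given by RefSeq (GRCm38.p6), from 250 bases before to 50 after the start, 5′ to 3′ on the gene's strand. They are chr13:74292282-74292581 (minus strand) for Ahrr, chr3:65528197-65528496 (plus strand) for Tiparp and chr3:95434140-95434439 (plus strand) for Arnt. Capitals mark the core GCGTG or its complement CACGC, searched on both strands.
Ahrr: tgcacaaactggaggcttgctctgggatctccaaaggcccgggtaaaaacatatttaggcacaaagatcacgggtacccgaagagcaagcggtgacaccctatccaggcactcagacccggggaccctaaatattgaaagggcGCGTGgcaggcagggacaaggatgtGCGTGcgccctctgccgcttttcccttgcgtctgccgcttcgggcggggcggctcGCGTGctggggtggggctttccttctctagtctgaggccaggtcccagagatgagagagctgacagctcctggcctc
Tiparp: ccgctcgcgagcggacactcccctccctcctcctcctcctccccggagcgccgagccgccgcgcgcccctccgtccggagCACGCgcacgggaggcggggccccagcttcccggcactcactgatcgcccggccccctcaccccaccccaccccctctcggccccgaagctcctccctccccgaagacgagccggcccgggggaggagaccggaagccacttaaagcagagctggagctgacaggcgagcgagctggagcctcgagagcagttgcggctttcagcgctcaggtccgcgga
Arnt: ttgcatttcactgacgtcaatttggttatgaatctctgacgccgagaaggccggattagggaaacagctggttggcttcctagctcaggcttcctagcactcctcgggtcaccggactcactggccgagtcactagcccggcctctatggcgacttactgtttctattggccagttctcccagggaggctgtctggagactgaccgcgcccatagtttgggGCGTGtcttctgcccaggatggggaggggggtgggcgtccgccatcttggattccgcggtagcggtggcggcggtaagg
The Ahrr region held 3 cores, all on the gene's own strand and all within the 107 bases before the start, with their first bases at -107, -82 and -27. Tiparp held 1, on the opposite strand at -170 to -166, and Arnt held 1 at -29 to -25. Of 32851 such regions of 300 bases, 32.4% held at least 1 core and 3.91% held at least 3. The regions are rich in G and C (60.3% in Ahrr, 73.7% in Tiparp, 59.3% in Arnt, against a median of 52.7% over all regions). A match is a run of letters and not a shown binding site.

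The probes differed in how far they stood above the array's threshold (set 3 trimmed SD over the trimmed mean of its negative controls). Ahr and Tiparp were above it on all 39 arrays, with a median Cy5 signal of 17.3 and 19.5 times the threshold. Arnt and Ahrr were dim, at a median of 1.53 and 1.30 times. Ahrr was above the threshold on 9 of 9 smoke arrays and on 22 of the 30 others, and Arnt on 8 of 9 and 28 of 30. The scanner software had marked the Cy5 spot of Ahrr on 0 of the 9 smoke arrays and on 19 of the 30 others. Most Ahrr spots outside the smoke groups thus lay near the threshold in Cy5. In Cy3, the reference, the Ahrr spot was marked on 33 of the 39 arrays, smoke arrays among them, and above its threshold on 29. It was not above it on 6 week smoke m1 and m4. The Arnt spot was marked in Cy3 on 27 arrays and above on 35. Markers of the tissue were present: the surfactant and transporter genes of alveolar type II cells averaged 3.05 to 4.87 and the club cell list 1.80 to 6.18 (log2 lung over reference) on single arrays. The lowest Pearson correlation between any pair of arrays was 0.75.

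The arrays carried a strong grouping by exposure date. The sequence of exposure-date labels was cut here into 5 runs, a new one starting at each 6 week smoke array, with about 1 mouse per group in each. The labels do not name these runs. The first principal component (12.5% of the variance) was explained to 80.5% by the run and to 8.83% by the group, so the run entered every fit as a block. The array labelled 6 week sham m2 also goes against its label. Its Cyp1a1 level was 6.46, where the other 4 arrays of 6 week sham lay between 1.25 and 2.81 and the 9 smoke arrays between 5.07 and 8.06. Cyp1b1 was 2.00 on it, against -1.74 to -1.16 on the other 4. By its date label it stood between 6 week break sham and 12 week sham, the place of 12 week smoke in the other 4 runs, and its run held 2 arrays labelled 6 week sham and none labelled 12 week smoke. Which mouse the array holds cannot be told from the labels. The array is kept under its label, and the members' smoke effects are also given without it.

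Ahrr, the repressor, showed the largest smoke effects of the 4 genes. After 6 weeks its log2 ratios were 1.44, 0.61, 0.69, 1.62 and 1.62 in 6 week smoke, against -0.46, 2.52, -0.55, -0.34 and -0.04 in 6 week sham, where 2.52 is the array labelled 6 week sham m2. That value was the highest Ahrr level on any of the 39 arrays, and the other 4 sham arrays all lay below all 5 smoke arrays. After 12 weeks they were 2.01, 2.28, 1.48 and 1.24 in 12 week smoke, against -1.31, -0.44, 0.21, -0.01 and -0.39 in 12 week sham. At 12 weeks the groups did not overlap, which was so, with smoke higher, for 1.99% of all probes.

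At 12 weeks Ahrr rose 4.71-fold (log2 fold change 2.24 ± 0.38 SE, limma adjusted p = 0.00145), and without the array labelled 6 week sham m2 in the fit the value was 2.18 ± 0.26 (adjusted p = 2.76e-06). The difference was above 0 in 4 of 4 runs, from 1.27 to 3.32. At 6 weeks the log2 fold change was 1.06 ± 0.36 and did not pass (adjusted p = 0.365). Without that 1 array it was 1.56 ± 0.26 and passed (2.94-fold, adjusted p = 0.00163), the 4 sham and 5 smoke arrays no longer overlapped (1.28% of probes had smoke higher without overlap in this set), and the within-run differences were 1.04 to 2.17 in 4 runs. The 6 week call for Ahrr thus rests on how 1 array is treated. The 12 week call held without any single array and was lost with only the 2 groups in the fit (adjusted p = 0.225). Over all 4 members, 0 were called at 6 weeks (0.0626% of all probes, and 1 member against 0.188% without the array) and 2 at 12 weeks (0.433%, and again 2 against 0.518% without it).

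Tiparp moved less but on a bright spot. At 6 weeks it was 0.60, -0.12, -0.13, -0.04 and -0.17 in 6 week smoke, against -0.20, -0.27, -0.40, -0.20 and -0.28 in 6 week sham. All 5 smoke arrays lay above all 5 sham arrays (0.524% of probes did so), narrowly for 4 of them and widely for 6 week smoke m1. At 12 weeks it was 0.05, 0.00, -0.33 and -0.05 in 12 week smoke, against -0.76, -0.56, -0.63, -0.45 and -0.50 in 12 week sham. The groups again did not overlap (1.99% of probes had smoke higher without overlap). On the array labelled 6 week sham m2 Tiparp was -0.27, inside the range of the other 6 week sham arrays and also inside that of 12 week smoke (-0.33 to 0.05). Ahrr on that array was above every smoke array.

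Tiparp rose 1.41-fold at 12 weeks (log2 fold change 0.50 ± 0.11, adjusted p = 0.023). With 6 week sham m2 left out it was again 0.50 ± 0.11 (adjusted p = 0.022). The 6 week value of 0.29 ± 0.10 did not pass (adjusted p = 0.398), and it was 0.28 ± 0.11 without that array and 0.13 without 6 week smoke m1 (adjusted p = 0.406 and 0.794). Differences within runs were above 0 in 4 of 4 runs at either time, between 0.07 and 0.81 at 6 weeks and between 0.30 and 0.81 at 12 weeks. The 12 week call was lost with median centring in place of loess (log2 fold change 0.39, adjusted p = 0.297), with spot means, without the run block, with only the 2 groups in the fit, and when any of 5 single arrays was left out (12 week smoke m1, m2 or m4, 12 week sham m1 or m2, adjusted p 0.0817 to 0.124).

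**Figure D1:**
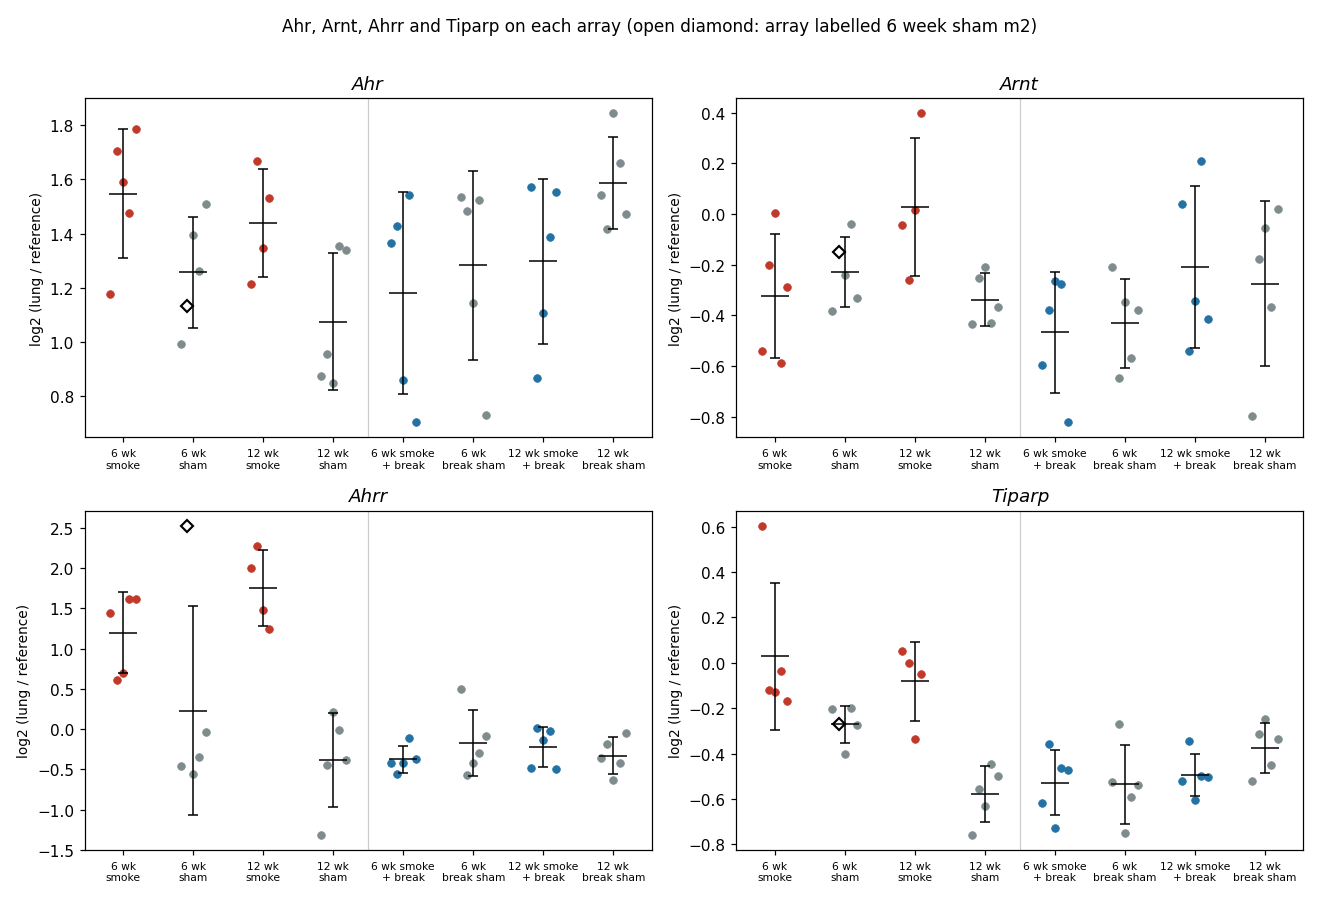
Log2 ratio of lung to reference of Ahr, Arnt, Ahrr and Tiparp on each of the 39 arrays by group (points, with group mean and SD as bars). Ahrr of all smoke arrays lay at 0.61 or higher, and of the arrays without smoke or after a break only the array labelled 6 week sham m2 (open diamond, 2.52) did so. The share of all probes with such a split was not counted.

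Ahr, the receptor, was bright, and neither of its smoke effects passed. At 6 weeks its log2 ratios were 1.18, 1.70, 1.59, 1.48 and 1.79 in 6 week smoke, against 0.99, 1.13, 1.39, 1.26 and 1.51 in 6 week sham. At 12 weeks they were 1.21, 1.67, 1.35 and 1.53 in 12 week smoke, against 0.87, 0.95, 0.85, 1.36 and 1.34 in 12 week sham. The groups overlapped at both times. The log2 fold change was 0.27 ± 0.17 at 6 weeks (adjusted p = 0.717) and 0.35 ± 0.18 at 12 weeks (adjusted p = 0.571), with 95% intervals of -0.08 to 0.62 and -0.02 to 0.71. With 6 week sham m2 left out they were 0.25 ± 0.18 and 0.35 ± 0.18. Neither passed, and the upper ends of these intervals are a 1.54-fold and a 1.64-fold rise.

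Arnt, the partner, gave values near the threshold. It was -0.54, -0.20, 0.00, -0.59 and -0.29 in 6 week smoke, against -0.38, -0.15, -0.24, -0.04 and -0.33 in 6 week sham. It was -0.04, -0.26, 0.02 and 0.40 in 12 week smoke, against -0.44, -0.25, -0.21, -0.43 and -0.37 in 12 week sham. At 12 weeks 3 of the 4 smoke arrays lay above all sham arrays, and at 6 weeks 1 of 5 did. The log2 fold change was -0.10 ± 0.14 at 6 weeks (adjusted p = 0.906) and 0.35 ± 0.15 at 12 weeks (unadjusted p = 0.0266, adjusted p = 0.443), and -0.06 ± 0.15 and 0.34 ± 0.15 with 6 week sham m2 left out. Neither passed.

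The mean of the smoke effects at both durations, a contrast chosen after the data were seen, was 1.65 ± 0.26 for Ahrr (adjusted p = 0.000526) and 0.39 ± 0.08 for Tiparp (adjusted p = 0.00405), and both rose by it. It was 0.31 ± 0.12 for Ahr (adjusted p = 0.28) and 0.13 ± 0.10 for Arnt (adjusted p = 0.7). That made 2 of the 4 members called, against 1.22% of all probes. With 6 week sham m2 left out the values were 1.87 ± 0.18 for Ahrr, 0.39 ± 0.08 for Tiparp, 0.30 ± 0.13 for Ahr and 0.14 ± 0.11 for Arnt.

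The smoke effect against sham was higher at 12 than at 6 weeks for each gene. The difference of the smoke effects passed for none of them, as for 0% of all probes (854 probes had an unadjusted p under 0.05). For Ahr and Tiparp the mean of the smoke group itself was lower at 12 weeks (1.44 against 1.55, and -0.08 against 0.03). Their sham means were lower too (1.07 against 1.26, and -0.58 against -0.27). For Ahrr it was 1.18 ± 0.52 (adjusted p = 0.971), and without the array labelled 6 week sham m2 0.63 ± 0.36. It was 0.45 ± 0.20 for Arnt, 0.21 ± 0.15 for Tiparp and 0.07 ± 0.25 for Ahr, and 0.40, 0.22 and 0.09 without that array.

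**Figure D2:**
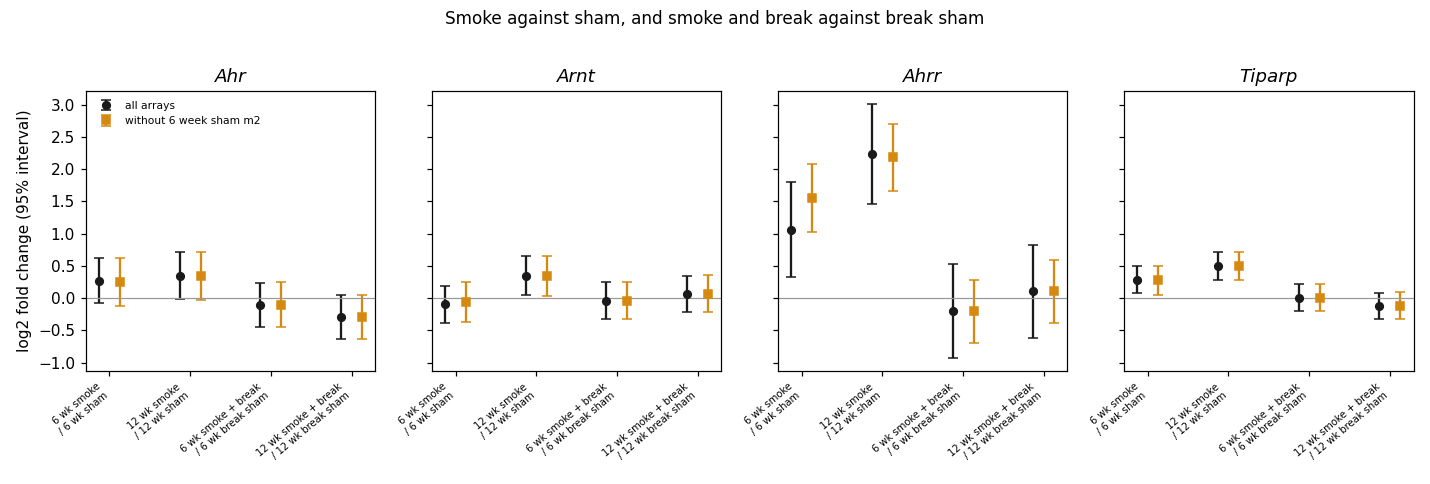
Log2 fold change with its 95% interval for the 4 genes in 4 comparisons, smoke against sham and smoke and break against break sham at 6 and 12 weeks, with all arrays (circles) and without the array labelled 6 week sham m2 (squares). Ahrr stood at 1.06 and 2.24 without a break and at -0.20 and 0.11 with one.

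After the 6 week break the difference between smoke and sham passed for none of the 4 genes. Ahrr was -0.42, -0.56, -0.42, -0.11 and -0.37 in 6 week smoke and break, against 0.50, -0.57, -0.42, -0.29 and -0.09 in 6 week break sham. It was -0.48, 0.01, -0.14, -0.02 and -0.49 in 12 week smoke and break, against -0.36, -0.18, -0.63, -0.42 and -0.05 in 12 week break sham. All 10 arrays of smoke and break lay below the lowest smoke array (0.61). The share of all probes with such a split was not counted. The log2 fold change was -0.20 ± 0.36 at 6 weeks and 0.11 ± 0.36 at 12 weeks, with 95% intervals of -0.93 to 0.52 and -0.62 to 0.83. The upper end at 12 weeks is a 1.78-fold rise. With 6 week sham m2 left out of the fit both values were unchanged, at ± 0.24. The intervals were then -0.69 to 0.29 and -0.39 to 0.60, and the upper end at 12 weeks was a 1.51-fold rise.

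Tiparp was -0.62, -0.36, -0.73, -0.46 and -0.47 in 6 week smoke and break, against -0.53, -0.27, -0.75, -0.59 and -0.54 in 6 week break sham. It was -0.52, -0.34, -0.60, -0.50 and -0.50 in 12 week smoke and break, against -0.52, -0.31, -0.25, -0.45 and -0.34 in 12 week break sham. The groups overlapped, and the log2 fold change was 0.01 ± 0.10 at 6 weeks and -0.12 ± 0.10 at 12 weeks. Ahr gave -0.10 ± 0.17 and -0.29 ± 0.17, and Arnt -0.04 ± 0.14 and 0.07 ± 0.14. Of the 4 members 0 were called at either time, as were 0% of all probes at both, where 758 probes at 6 weeks and 1129 at 12 weeks had an unadjusted p under 0.05 and no member did.

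Whether the smoke effect itself differed without and with the break was tested as a difference of the 2 effects. At 12 weeks it was 2.13 ± 0.52 for Ahrr (adjusted p = 0.131) and 0.62 ± 0.15 for Tiparp (adjusted p = 0.116), and 0 of 4 members passed, against 0.0683% of all probes. Without the array labelled 6 week sham m2 in the fit the Ahrr value was 2.08 ± 0.35 and passed (adjusted p = 0.00227, 1 of 4 members against 0.154%). At 6 weeks it was 1.26 ± 0.51 for Ahrr (adjusted p = 0.732, 0 of 4 members against 0%, with 1149 probes at an unadjusted p under 0.05), and 1.76 ± 0.35 without the array (adjusted p = 0.038, 1 of 4 members against 0.0683%). For Ahr it was 0.64 ± 0.25 at 12 weeks (adjusted p = 0.561). Under the alternatives tried at 12 weeks, Ahrr passed in 2 of 29. These were the fit without that array and the fit of only the groups of the contrast (2.07, adjusted p = 0.033). Tiparp passed in 1 of 30, with array weights (0.61, adjusted p = 0.049).

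Levels also differed between sham groups, none of which had smoke, though no member passed. Break sham and sham mice differ in age and in time since restraint, which cannot be told apart. Sham mice of 12 and 6 weeks differ in age and in length of restraint, which cannot be told apart either. Ahr was 1.54, 1.42, 1.84, 1.66 and 1.47 in 12 week break sham, above all 5 arrays of 12 week sham (0.615% of probes did so), a log2 fold change of 0.51 ± 0.17 that did not pass (adjusted p = 0.309). The smoke effect on Ahr at 12 weeks (0.35) has the same 12 week sham arrays as its reference. Tiparp in 12 week sham lay below all arrays of 6 week sham (0.279% of probes did so), by -0.32 ± 0.10 (adjusted p = 0.589), and by -0.33 ± 0.11 with 6 week sham m2 left out. The means of Tiparp in 6 week smoke and 12 week smoke were 0.03 ± 0.32 and -0.08 ± 0.17 (SD, n = 5 and 4). In break sham against sham at 6 weeks Tiparp gave -0.28 ± 0.10 (adjusted p = 0.363), and -0.29 ± 0.11 with that array left out. No member passed in these 3 comparisons of sham groups, where 0.29% of all probes did for break sham against sham at 6 weeks, 0.0228% at 12 weeks and 0% for 12 week against 6 week sham (1205 at an unadjusted p under 0.05).

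Ordered by group mean, Ahrr ran from 12 week smoke (1.75) over 6 week smoke (1.20) and 6 week sham (0.23, and -0.35 without the array labelled 6 week sham m2) to 5 groups between -0.17 and -0.39, neighbours of which lay closer than their SD. The smoke groups stood apart by 0.56, more than the larger of their SD. Tiparp had both smoke groups on top, followed by 6 week sham (-0.27) and 12 week break sham (-0.37), and the 4 lowest groups lay between -0.49 and -0.58 within their SD of each other. For Ahr every neighbour in the order lay within the larger SD, and its top and bottom were 12 week break sham (1.59) and 12 week sham (1.07). The same held for Arnt, with 12 week smoke on top (0.03) and 6 week smoke and break at the bottom (-0.47). The spread of the 8 group means was 2.14 for Ahrr, 0.61 for Tiparp, 0.51 for Ahr and 0.50 for Arnt.

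**Figure D3:**
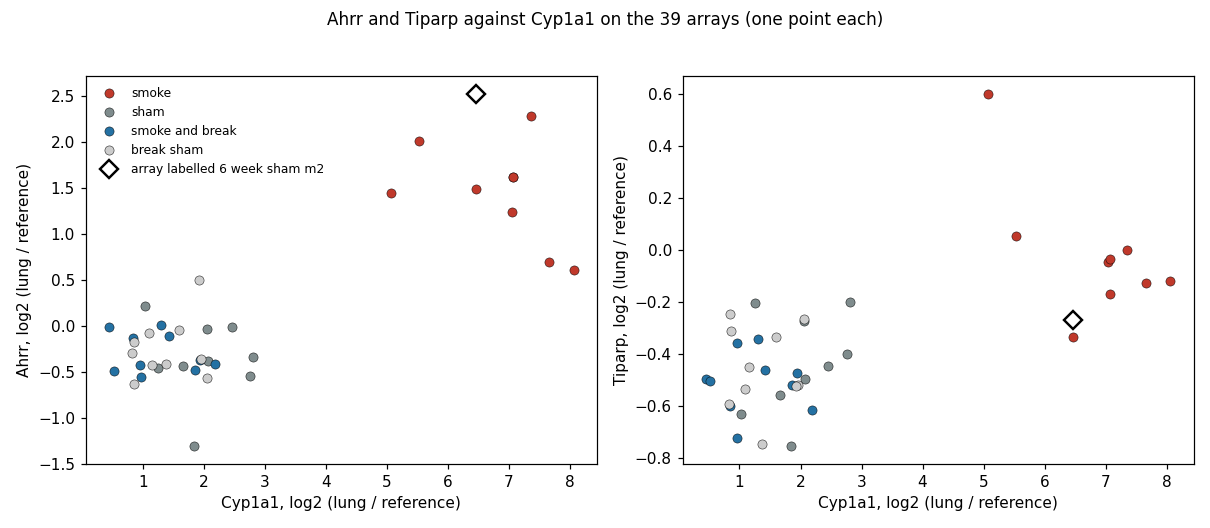
Ahrr (left) and Tiparp (right) against Cyp1a1, all as log2 ratio of lung to reference, on the 39 arrays. The 9 smoke arrays lie at a Cyp1a1 level above 5 and the others below 3, and the array labelled 6 week sham m2 lies at 6.46 for Cyp1a1, 2.52 for Ahrr and -0.27 for Tiparp.

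The genes whose pattern was most like each member were read from the Pearson correlation over the 39 arrays after the run effects were taken off, among 14654 other genes, as a description. For Ahrr they were Srxn1, Hmox1, Txnrd1, Nqo1 and Bcl3 (r 0.88 to 0.90), of which the first 4 encode antioxidant and detoxifying enzymes and Bcl3 is a cofactor of NF-kB. Within groups and runs the correlation of these 5 with Ahrr was 0.63 to 0.71. These within-group values include the array labelled 6 week sham m2. They were not computed without it, so its part in them is not known. Cyp1b1 stood at place 6 (0.88), Cyp1a1 at place 12 (0.83) and Tiparp at place 66 (0.70). For Tiparp they were Clk3, Jag2, Osmr, Ccl17 and Pou3f1 (0.73 to 0.78, and 0.34 to 0.49 within groups and runs), with Ahrr at place 14. For Ahr (Abi1, Hipk2, Malsu1, Rnf115, Grp) the values were 0.67 to 0.72, and for Arnt (Kcnq5, Cul4b, Gabra6, Stmn4, Rbms2) 0.58 to 0.64. The arrays share the reference RNA, and most of the spread behind the Ahrr and Tiparp values is between smoke and other arrays.

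Other genes of the pathway were read from lists chosen with earlier results known. Among AhR-responsive genes 14 of 19 had a kept probe, and 4 of the 14 rose at 6 weeks and 5 at 12 weeks, with 0 falling at either time, beside 0.0626% and 0.433% of all probes called in either direction. Those were Cyp1a1 (log2 fold change 3.95 ± 0.60 at 6 weeks and 4.88 ± 0.63 at 12 weeks), Cyp1b1 (2.52 ± 0.38 and 3.32 ± 0.40), Nqo1 (1.18 ± 0.20 and 1.96 ± 0.21) and Aldh3a1 (1.57 ± 0.20 and 1.85 ± 0.21), and at 12 weeks Gsta1 (1.15 ± 0.19). With 6 week sham m2 left out the counts called were again 4 and 5. Cyp1a1 was then 4.71 ± 0.47 at 6 weeks, 26.2-fold in place of 15.5-fold, and 27.9-fold at 12 weeks. Cyp1b1 was then 3.09 ± 0.23 and 3.26 ± 0.23, Nqo1 1.46 and 1.93, and Aldh3a1 1.83 and 1.82. Cyp1a1 and Cyp1b1 encode cytochromes that oxidize aromatic hydrocarbons, and Nqo1, Aldh3a1 and Gsta1 encode a quinone reductase, an aldehyde dehydrogenase and a glutathione transferase. Cyp1a1 was at the scanner limit on 3 arrays, and its Cy5 spot was marked on 7 of the 9 smoke arrays. Its Cy3 spot was marked on 31 of the 39 arrays. It was above its threshold on 10 only, the 9 smoke arrays and 6 week sham m2. The fold changes of Cyp1a1 thus rest on a dim reference spot. Nfe2l2, which encodes the transcription factor Nrf2, had 0.75 ± 0.25 at 6 weeks and 1.01 ± 0.27 at 12 weeks and did not pass (adjusted p = 0.358 and 0.0996). The other 8 kept genes, Scin, Socs2, Cd36 and Ido1 among them, lay between -0.14 and 0.34 at both times, and the list's median was 0.27 and 0.32, beside 0.01 and 0.0054 over all probes. Gsta1 at 6 weeks had 0.34 ± 0.18 and did not pass.

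**Figure D4:**
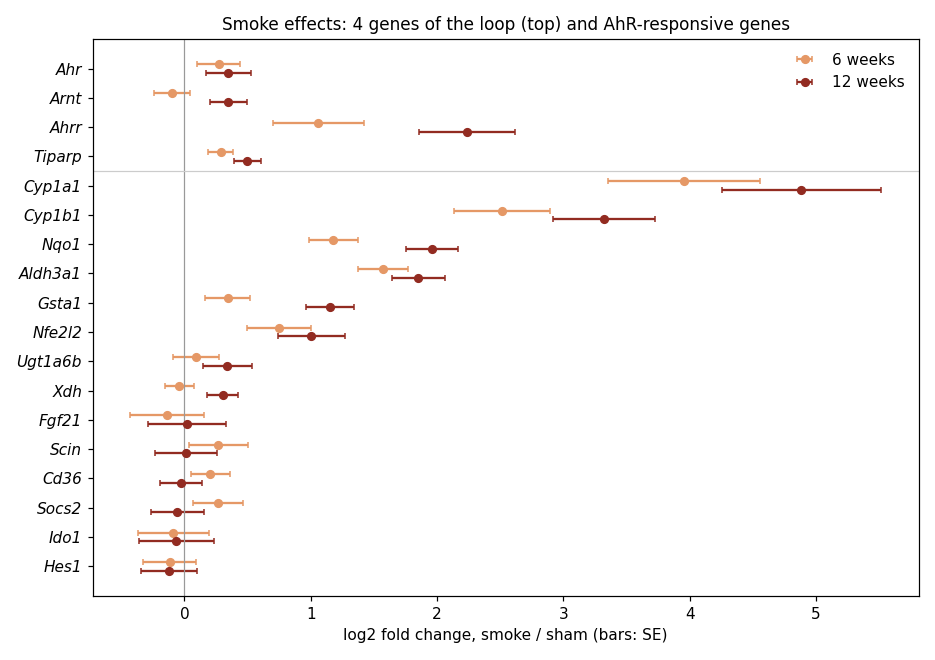
Log2 fold change (± SE) of smoke against sham at 6 and 12 weeks, for Ahr, Arnt, Ahrr and Tiparp (top) and the 14 AhR-responsive genes with a kept probe. Values for Ahr (0.27 and 0.35), Arnt (-0.10 and 0.35) and Tiparp (0.29 and 0.50) stayed below those of Nqo1 (1.18 and 1.96).

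In the lists of the receptor's partners and relatives 0 genes passed in either smoke effect, a count near the share of all probes called (0.0626% at 6 weeks and 0.433% at 12 weeks). The chaperone complex had 3 of 5 genes measured (Hsp90aa1, Ptges3 and Src, -0.21 to 0.09 in both smoke effects) and the ubiquitin ligase parts 5 of 5 (median -0.03 and 0.04, the most extreme being Stub1 at -0.27 ± 0.10 at 12 weeks, adjusted p = 0.373). Of 13 bHLH-PAS relatives 8 were measured (median 0.05 and 0.15), among them Hif1a, the oxygen-sensing partner of Arnt (0.28 ± 0.13 at 6 weeks, adjusted p = 0.554), Sim2 (0.55 ± 0.24 at 12 weeks, adjusted p = 0.445) and Epas1 (0.48 ± 0.22 at 12 weeks, adjusted p = 0.489). The coregulators (10 of 13 measured, median 0.06 and 0.08) included Nrip1 at 0.38 ± 0.15 at 12 weeks (adjusted p = 0.343) and Hdac4 at 0.38 ± 0.14 at 6 weeks (adjusted p = 0.409). The PARP family and macrodomain hydrolases, relatives and opponents of Tiparp in ADP-ribosylation, had 16 of 17 measured and a median of 0.04 and -0.04. Zc3hav1 was lowest there, at -0.36 ± 0.10 at 6 weeks (adjusted p = 0.229).

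Macrophage markers tended to be higher in smoke than in sham. All 8 were measured, and their log2 fold changes were above 0 for 8 at 6 weeks and 7 at 12 weeks (median 0.52 and 0.58), though none passed. Other lists shared such signs with smaller medians. Above 0 at 6 and 12 weeks were 4 and 4 of 4 alveolar type I, 5 and 3 of 5 alveolar type II and 3 and 5 of 5 endothelial markers. For neutrophils they were 4 and 1 of 4, for club cells 2 and 2 of 3, for T cells 1 and 1 of 4 and for B cells 1 and 1 of 3. The mean macrophage marker level per array lay between 1.26 and 1.99 in 6 week smoke, against 0.67 and 1.16 in 6 week sham. At 12 weeks it lay between 1.13 and 1.50 in the smoke group, against 0.42 and 1.22 in sham. With the break it lay between 0.93 and 1.19 in 6 week smoke and break, against 0.64 and 1.17 in 6 week break sham. It lay between 0.82 and 1.39 in 12 week smoke and break, against 0.74 and 1.47 in 12 week break sham. The ranges of all sham groups and of all groups with a break reached into that of 12 week smoke. Fibroblast markers had a median of -0.23 at 12 weeks, and 1 of 5, the collagen gene Col3a1 (chosen after its value was seen), fell by 0.80 ± 0.18 (log2, adjusted p = 0.0275). The part of cell composition in the Ahrr and Tiparp results was not tested.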

How the data were processed

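The authors' deposited scanner files hold ImaGene intensity values of each spot and its local background in Cy5 (lung) and Cy3 (reference), without correction or normalization. A table of log2 values deposited by the authors, global LOWESS normalized, served as an alternative start. Here spot and background medians were corrected by normexp with an offset of 50, which pulls ratios of dim spots towards 0. They were then normalized by loess within arrays. Members, lists and contrasts were chosen with earlier results of these data known. Probes with Cy5 above the array threshold (5% trimmed at each end) in at least 4 arrays of 1 group were kept. The fit was limma 3.58.1 (R 4.3.3) on all 39 arrays, with the 8 groups and the 5 runs of exposure-date labels, which need not equal the study's own blocks. Adjusted p-values are Benjamini-Hochberg over 17560 probes, with a threshold of 0.05. Single arrays are single mice. Named genes were the 4 members, the list genes called in a smoke effect with up to 3 others of smallest p, Cyp1a1 and Cyp1b1, and the 5 genes most like each member. Symbols of 19 probes were updated. Median Cy5 per array was 268 to 1532, 2.20 to 8.94 times the background, and 48.4% to 94.6% of probes exceeded the threshold; the number of arrays limits the precision. The fit was tested on simulated data.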

Additional observations from a re-analysis of the deposited data

Results flagged for a closer look

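Of 32 groups of arrays (4 genes in 8 groups), 2 held an array whose gap to its nearest neighbour was large for the range of the group, and chance alone marks about 1 in 20 such groups. Ahrr on the array labelled 6 week sham m2 was 2.52, where the next highest of 6 week sham was -0.04 and the lowest -0.55. Tiparp on 6 week smoke m1 was 0.60, where the next highest of 6 week smoke was -0.04 and the lowest -0.17.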

How the results depend on the processing

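Signs of the smoke effects of all 4 genes held under every alternative tried, 156 values in all, and the smoke calls changed for Ahrr and Tiparp only. Leaving out 1 array gave 0.86 to 1.56 for Ahrr at 6 weeks, 1.56 without 6 week sham m2. For Ahrr at 12 weeks 18 of 19 alternatives passed, the exception being only the 2 groups in the fit (2.23, adjusted p = 0.225). Tiparp at 12 weeks passed in 11 of 20 and failed at 0.48 with spot means, 0.39 with median centring, 0.50 without the run block, 0.53 with only the 2 groups, and in 5 of the fits that left out 1 array. Over all fits that left out 1 array it was 0.43 to 0.54. Spots marked by the scanner software could not be left out for Ahrr and Arnt, and the 4 genes have 1 probe each, so no other probe was tried. Of the AhR-responsive list 0 genes, in place of 4, were called at 6 weeks with only the 2 groups in the fit, and of the PARP list 1 in place of 0 from the deposited log2 ratios or without marked spots. The run, read here from the sequence of date labels, is the only pairing of arrays that was used. It is a block in the reported fit, and without it no other member's call changed.

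Signs turned only for values that had not passed. In smoke and break at 6 weeks, leaving out 1 array gave -0.24 to 0.013 for Ahr, -0.13 to 0.051 for Arnt, -0.33 to 0.017 for Ahrr and -0.018 to 0.060 for Tiparp. Array weights gave 0.074 for Arnt and median centring -0.070 for Tiparp. At 12 weeks, leaving out 1 array gave -0.057 to 0.17 for Arnt and -0.0080 to 0.30 for Ahrr, and Arnt was -0.0018 without background correction, -0.020 from the deposited log2 ratios and -0.00086 with array weights. For the difference between durations Ahr was -0.0099 without marked spots, -0.14 with median centring and -0.021 to 0.18 with 1 array left out, and Tiparp -0.012 with median centring. For without against with a break at 6 weeks Arnt was -0.15 to 0.036. For break sham against sham at 6 weeks Ahr was -0.038 with array weights, -0.053 with only the 2 groups and -0.079 to 0.17 with 1 array left out, and Ahrr -0.53 to 0.19. At 12 weeks Arnt was -0.044 to 0.19, and Ahrr -0.0016 without background correction, -0.013 from deposited ratios, -0.089 with array weights and -0.18 to 0.24. For 12 against 6 week sham Arnt was 0.0012 with spot means. Signs turned for the bright Ahr and Tiparp as well as for the dim Ahrr and Arnt, and the cause was not tested.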
